A study of Homo sapiens with 19 samples.

Results

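The regions described here are the superenhancers that MDA-MB-231 breast cancer cells had both with and without forced expression of the transcription factor OCT-2. MDA-MB-231 is a human triple-negative breast cancer cell line. Superenhancers were listed from ChIP-seq of histone H3 acetylated at lysine 27 (H3K27ac) in 231Pa_Luc+OCT-2 cells, which carry luciferase and POU2F2 (the gene of OCT-2) as stable transgenes, and in 231Pa_Luc+GFP cells, which carry luciferase and GFP. Both populations are polyclonal derivatives of the parental line. They share the luciferase transgene, so GFP against OCT-2 is what differs. Each has 2 replicates, which the authors merged into 1 list of regions. OCT-2 itself was precipitated in 231Pa_Luc+OCT-2, also with 2 replicates in 1 list. A member is a region of the Luc+OCT-2 list on chromosomes 1 to 22 or X that overlaps a region of the Luc+GFP list by 1 bp or more. The members were thus chosen by the measured H3K27ac regions of these 2 lists. The rule took 314 of the 518 Luc+OCT-2 regions (60.6%), and these met 308 of the 337 Luc+GFP regions. They are called kept below, and the other 204 Luc+OCT-2 regions are called Luc+OCT-2-only. The lists hold positions alone, without reads, scores or a value per replicate. Depth is therefore unknown, every unit below is a region, gene or peak, and no spread between libraries enters any value. No source used here names the promoter of the transgenes.

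A superenhancer is a long stretch of neighbouring enhancers with dense H3K27 acetylation, a mark of active enhancers and promoters. Such stretches are known to lie near genes that define a cell's identity, above all near genes of its own transcription factors. OCT-2 is a POU domain protein, best known from B lymphocytes, that binds the octamer motif. MDA-MB-231 cells are known for a basal, mesenchymal-like state with active AP-1 and Hippo-pathway output.

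Where OCT-2 lay on a promoter inside a kept superenhancer, the sequence could be read. RefSeq promoters (GRCh38.p14, 250 bases before to 50 bases after a gene start) numbered 34961, of which 3.22% lay in a kept region and 1.42% met an OCT-2 peak. Of the 1126 promoters in kept regions, 50 (4.44%) met a peak, and they belong to 47 genes, 33 of them protein-coding. The octamer was searched as ATGCAAAT on both strands. It was present in 9 of these 50 promoters (18%, exact 95% interval 8.58 to 31.4%), in 20 of the 1076 promoters in kept regions without a peak (1.86%, interval 1.14 to 2.86%) and in 618 of all 34961 (1.77%). Peaks on promoters outside kept regions gave 69 of 446 (15.5%, interval 12.2 to 19.2%), and the intervals for peaks inside and outside kept regions overlapped. Here and below, intervals cover counting error only. Alternative promoters of 1 gene share bases and peaks.

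The 250 bases before the start of 5 genes are shown because each holds an octamer next to or under an OCT-2 peak inside a kept region. They are read 5′ to 3′ on the strand of the gene, and capitals mark the octamer or its reverse complement. They lie at chr6:26033619-26033868 (H2AC4, minus strand), chr6:26043714-26043963 (H2BC3, minus strand), chr12:120291939-120292188 (SIRT4, plus strand), chr14:22976843-22977092 (AJUBA, minus strand) and chr17:45135437-45135686 (ACBD4, plus strand).
H2AC4: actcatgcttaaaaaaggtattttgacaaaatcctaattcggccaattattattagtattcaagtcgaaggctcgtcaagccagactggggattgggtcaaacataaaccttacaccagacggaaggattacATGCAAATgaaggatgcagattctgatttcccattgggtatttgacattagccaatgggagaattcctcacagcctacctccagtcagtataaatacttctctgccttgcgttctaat
H2BC3: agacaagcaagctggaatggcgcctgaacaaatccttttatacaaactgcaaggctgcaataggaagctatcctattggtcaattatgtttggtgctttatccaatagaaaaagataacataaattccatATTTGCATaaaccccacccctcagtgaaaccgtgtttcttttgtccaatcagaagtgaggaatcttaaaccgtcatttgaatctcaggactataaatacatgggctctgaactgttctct
SIRT4: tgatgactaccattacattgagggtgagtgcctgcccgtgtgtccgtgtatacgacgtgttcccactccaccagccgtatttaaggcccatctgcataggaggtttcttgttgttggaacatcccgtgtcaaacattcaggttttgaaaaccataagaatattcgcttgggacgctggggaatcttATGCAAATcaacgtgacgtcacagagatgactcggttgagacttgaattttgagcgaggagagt
AJUBA: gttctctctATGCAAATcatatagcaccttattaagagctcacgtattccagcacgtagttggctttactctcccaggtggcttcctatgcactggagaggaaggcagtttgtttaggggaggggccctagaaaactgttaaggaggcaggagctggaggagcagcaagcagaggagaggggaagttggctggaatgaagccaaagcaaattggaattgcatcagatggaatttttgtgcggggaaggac
ACBD4: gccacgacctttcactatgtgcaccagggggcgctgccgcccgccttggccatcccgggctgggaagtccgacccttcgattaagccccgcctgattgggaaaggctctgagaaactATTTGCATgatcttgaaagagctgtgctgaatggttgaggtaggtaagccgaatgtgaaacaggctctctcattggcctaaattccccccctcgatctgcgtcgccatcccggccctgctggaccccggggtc

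H2AC4 and H2BC3 encode core histones H2A and H2B, and their octamers began 118 and 120 bases before the gene start. SIRT4 encodes a mitochondrial sirtuin, and its octamer began 64 bases before the start. A later SIRT4 start carries an octamer that begins 2 bases before it, under a second peak. In AJUBA, which encodes a LIM protein that acts on the Hippo pathway, the octamer began 241 bases before the start and its first base lay just outside the peak. In each of the other 8 promoters the octamer lay wholly under the peak. One peak of the region at PRDX5, a peroxiredoxin gene, held 2 octamers, and with it they account for 3 promoters, since TRMT112, which encodes a methyltransferase subunit, starts there as well. Promoters under a peak in kept regions without an octamer included those of EPHA2, COL13A1, ACTN4, FOSB and RUNX1. Other motifs gave shares nearer to those of all promoters. TGANTCA, the AP-1 motif with any base in the middle, was present in 7 of the 50 (14%, interval 5.82 to 26.7%) against 7.68% of all promoters, and GGAATG, a TEAD motif, in 10 of 50 (20%, interval 10 to 33.7%) against 14%. Over all 496 promoters under a peak, inside kept regions or not, TGANTCA was present in 12.7% (interval 9.9 to 16%). That interval lay above the 7.68% of all promoters. GGAATG was present in 16.1% of the 496 (interval 13 to 19.7%). A match describes the letters and does not show a bound site.

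The kept superenhancers covered 34.5 Mb, which is 68.3% of the length of all Luc+OCT-2 regions. Their median width was 93.99 kb, with quartiles of 68.87 and 136.6 kb and a range of 5.681 to 471.1 kb. The rule asked for 1 bp, but the overlap was close to complete for most. Of the bases in kept regions, 94.3% lay in Luc+GFP regions as well, and the median region was covered to 99.9%. At least 90% was covered in 280 of 314 regions, at least 50% in 307, and 122 lay wholly inside a Luc+GFP region. The least covered region, at AFF3, was covered to 35.8%. The smallest overlaps in bases were 5.68 kb, at a region near the intermediate filament family gene IFFO2, and 12.9 kb, at the receptor tyrosine kinase gene AXL. Among the Luc+OCT-2-only regions, the nearest to a Luc+GFP region lay 24.8 kb away, at GPANK1. The next were 25.9 kb away at AKR1E2 and 26 kb away at JUN, and 16 of the 204 lay within 50 kb of one.

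Of the kept regions, 297 formed pairs of 1 Luc+OCT-2 and 1 Luc+GFP region, in which widths can be set side by side. In these pairs 189 (63.6%) had widths within 10% of each other, and the median width ratio of Luc+OCT-2 to Luc+GFP was 0.996 (quartiles 0.881 and 1). The edges themselves were mostly in the same place: the median distance between matching edges was 0.298 kb, 380 of 594 edges lay within 1 kb of each other, and in 119 pairs both did. The exceptions went more often to narrower regions. In 31 pairs the Luc+OCT-2 region was more than 1.5 times narrower and in 12 more than 1.5 times wider. The largest ratio was at AFF3, which encodes a nuclear protein of the AF4 family, with 234.7 kb against 84.06 kb. Wider regions were also seen at the Polycomb gene PHC2 (146.3 against 60.48 kb) and at ITGA2, an integrin subunit gene (125.2 against 55.8 kb). The narrowest remainders were near IFFO2 (5.681 against 78.33 kb) and RAB11FIP4, which encodes a Rab11 effector (52.28 against 222.6 kb). Apart from these pairs, 15 kept regions shared 7 Luc+GFP regions, 1 of which met 3 kept regions, and 2 kept regions joined several Luc+GFP regions. These widths come from the lists by which the members were chosen, and they are given as a description.

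**Figure D1:**
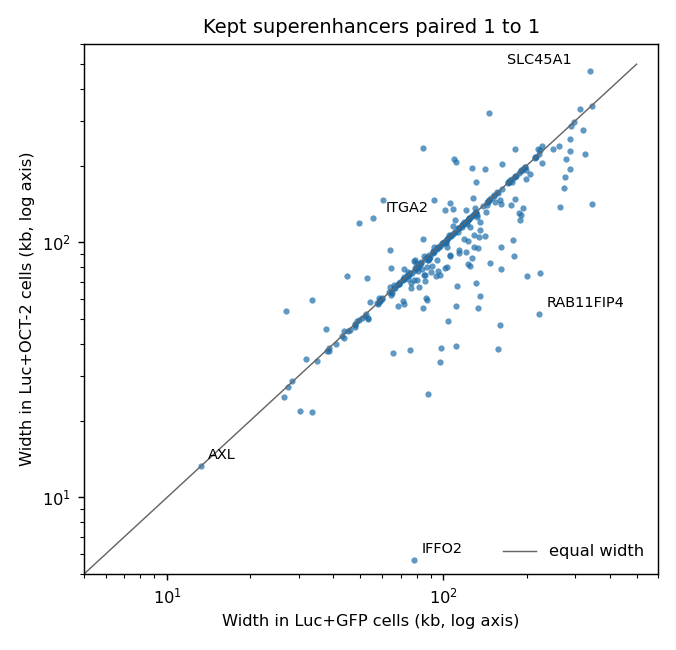
Width of each of 297 kept superenhancers in Luc+GFP cells (x axis, kb, log scale) and in Luc+OCT-2 cells (y axis, kb, log scale), 1 point per pair, with the line of equal width. Most points lie on the line (189 within 10%). The region near IFFO2 is the lowest point and that at SLC45A1 the highest.

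Kept superenhancers were spread over 22 of the 23 chromosomes searched. Chromosome 1 held 60, chromosome 6 held 26, chromosome 2 held 25 and chromosome 11 held 23. Chromosome 13 held 0 of its 2 Luc+OCT-2 regions and chromosome 16 held 1 of 6, that at CMIP, while all 5 on chromosome 22 and both on chromosome X were kept. Per 100 protein-coding genes, the number ran from 2.91 on chromosome 1, 2.79 on chromosome 20 and 2.72 on chromosome 10 down to 0.236 on X and 0.117 on chromosome 16. These counts follow from the rule and from how many regions each list holds there.

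About 3 in 10 kept regions lay in clusters. With a gap of at most 500 kb, 100 regions (31.8%) formed 42 clusters: 31 of 2 regions, 7 of 3, 3 of 4 and 1 of 5. The cluster of 5 spans 1.8 Mb of chromosome 11 (64165068 to 65962429). Genes nearest to its regions included PLCB3, a phospholipase C gene, EHD1, POLA2 and C11orf68, and the widths ran from 73.73 to 194.8 kb. The region at C11orf68 contains the AP-1 gene FOSL1 and meets part of the actin-severing gene CFL1. OCT-2 peaks were few there, with 3 in all over 619.6 kb. The cluster on chromosome 2 (27622276 to 29140078) held regions at MRPL33, the AP-1 gene FOSL2, PLB1 and CLIP4 with 9 peaks. A cluster on chromosome 1 (93661240 to 94655449) held 2 regions at BCAR3, known from anti-estrogen resistance, and regions at ARHGAP29 and at F3, the tissue factor gene, with 8 peaks. A further cluster of 4 on chromosome 1 lay at FHAD1, EFHD2, ZBTB17 and ARHGEF19 and held 3 peaks.

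Among the clusters of 3, the group at PHLDA1 on chromosome 12 (75704078 to 76349237) had 19 peaks, with 7, 7 and 5 in its regions. PHLDA1 encodes a pleckstrin-homology-like protein induced by growth factor signalling. The clusters at EHF, PDHX and CD44 on chromosome 11 and at CUBN, VIM and ST8SIA6 on chromosome 10 had 6 and 8. VIM, the gene of the intermediate filament vimentin, lay in a region of 59.25 kb with 1 peak, while the region at its neighbour CUBN had 6. The density intervals of clustered and single regions overlapped, and the difference was not tested. Of the 100 clustered regions 79 (79%) held a peak, at 20.5 peaks per Mb (95% Poisson interval 17.9 to 23.4), and of the 214 others 178 (83.2%), at 17.9 per Mb (interval 16.2 to 19.7).

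OCT-2 was present at most kept superenhancers, and wider regions held more peaks but fewer per Mb. At least 1 of 5736 peaks lay in 257 of 314 kept regions (81.8%, exact interval 77.1 to 86%), beside 78.4% of all 518 Luc+OCT-2 regions, kept ones included. Of the 204 Luc+OCT-2-only regions, whose median width was 72.97 kb, 149 held a peak (73%, interval 66.4 to 79%). Kept regions held 644 peaks (11.2% of all), or 18.7 per Mb (Poisson interval 17.3 to 20.2), and Luc+OCT-2-only regions held 260, or 16.3 per Mb (interval 14.4 to 18.4). Forced OCT-2 and OCT-2 from the cells' own gene cannot be told apart in these peaks. The number per kept region ran from 0 (57 regions) through 1 (88), 2 (66), 3 (44) and 4 (27) to 5 or more (32). The 103 regions with 3 or more peaks held 65.8% of the peaks in kept regions. Median width was 75.9 kb for regions without a peak, 94 kb with 2 and 157 kb with 5. Across the 314 regions, peak number and width had a Spearman coefficient of 0.41 and a Pearson r of 0.44, and peak density and width a Spearman coefficient of -0.11. Since wider regions have more room for peaks, the first relation is partly one of length.

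By quartile of the width of all Luc+OCT-2 regions, kept regions up to 59 kb had a mean of 1.09 peaks (n = 55) and those over 123 kb a mean of 2.94 (n = 101). The quartiles between them gave 1.59 (59 to 84.9 kb, n = 78) and 2.04 (84.9 to 123 kb, n = 80). Density went the other way, from 25.1 per Mb (Poisson interval 19.1 to 32.3) in the narrowest quartile through 22 and 20.1 to 16.2 (interval 14.4 to 18.2) in the widest. The share of kept regions with any peak was 65.5%, 79.5%, 78.8% and 95% from the narrowest to the widest quartile. In Luc+OCT-2-only regions it was 64%, 64.7%, 81.6% and 96.6%. None of the 4 comparisons passed the threshold of 0.05 in two-sided Fisher exact tests adjusted by Benjamini-Hochberg over the quartiles (odds ratios 1.07, 2.11, 0.834 and 0.686, adjusted p of 1, 0.28, 1 and 1), and in the second quartile alone the unadjusted Fisher exact p was 0.069. The density was numerically higher in kept regions in each quartile, for example 22 (interval 18.3 to 26.2) against 14.8 peaks per Mb (interval 11.1 to 19.3) between 59 and 84.9 kb. In all 4 quartiles the intervals of the 2 densities overlapped. Such overlap does not compare the densities, and their difference was not tested.

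**Figure D2:**
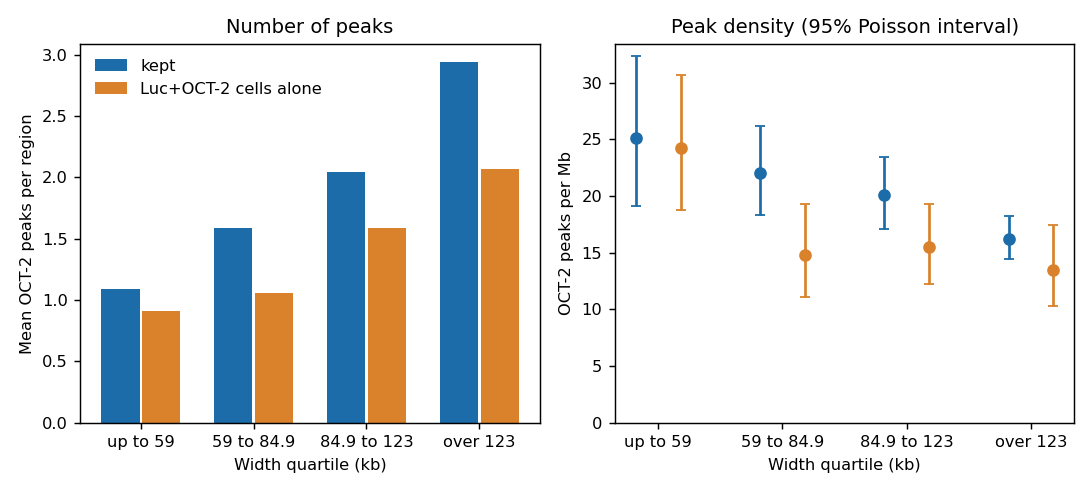
Left, mean number of OCT-2 peaks per region, and right, OCT-2 peaks per Mb with 95% Poisson intervals, for kept and Luc+OCT-2-only superenhancers in 4 width quartiles (x axis, kb). From the narrowest to the widest quartile, kept regions go from 1.09 to 2.94 peaks per region and from 25.1 to 16.2 peaks per Mb.

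Over kept superenhancers and their matching Luc+GFP regions, OCT-2 peaks were densest on the bases that both lists hold. These 32.5 Mb held 624 peaks by peak centre, or 19.2 per Mb (Poisson interval 17.7 to 20.8). The 1.98 Mb of kept regions present in the Luc+OCT-2 list alone held 19, or 9.6 per Mb (interval 5.78 to 15). The 4.65 Mb of the matching Luc+GFP regions that lie outside any Luc+OCT-2 region held 22, or 4.73 per Mb (interval 2.97 to 7.17). The interval of the shared bases lay above both others. Without the widest region, which has 165 kb of bases in the Luc+OCT-2 list alone, that class gave 9.37 per Mb. Bases held by 1 list lie at region edges, or between joined regions, by construction. Luc+OCT-2-only regions are not among them and had 16.3 peaks per Mb (interval 14.4 to 18.4). Along the length of all kept regions, each 10% of the length held between 8.39 and 12.4% of the peaks, and 50.3% lay in the middle 50% of the length. Neighbouring peaks in a region were a median of 20.5 kb apart (quartiles 7.63 and 39.4 kb), and 12 of 387 neighbours were less than 1 kb apart.

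**Figure D3:**
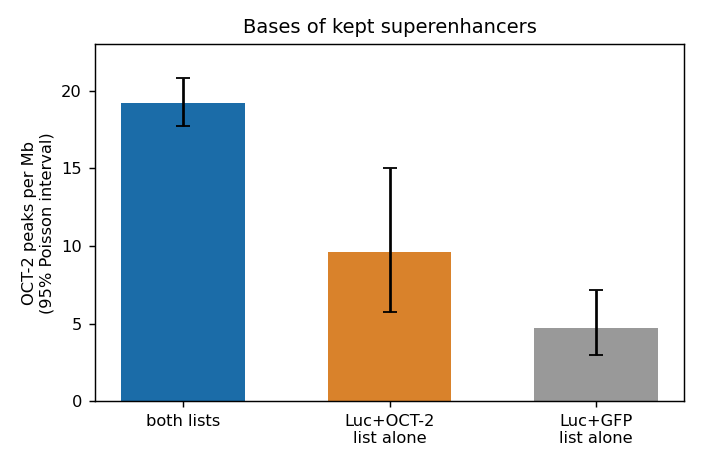
OCT-2 peaks per Mb (y axis, bars start at 0, error bars are 95% Poisson intervals) over bases of kept superenhancers in both lists, in the Luc+OCT-2 list alone, and in the Luc+GFP list alone. Shared bases have 19.2 peaks per Mb, above 9.6 and 4.73 for bases of 1 list.

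The share of peaks near gene starts was close to that elsewhere. Of the 644 peaks, 70 (10.9%) were within 1 kb of a RefSeq start, 261 (40.5%) elsewhere in a protein-coding gene and 313 (48.6%) outside, and of the 4832 peaks outside all Luc+OCT-2 superenhancers 10%, 45% and 45% fell in these classes. Gene-poor regions had the denser peaks. The 49 kept regions without a protein-coding gene had 26.9 peaks per Mb (Poisson interval 22.3 to 32.2), the 230 with 1 to 4 genes had 18.6 (interval 16.9 to 20.4), and the 35 with 5 or more had 12.4 (interval 9.61 to 15.7). Their median widths were 80.5, 92.9 and 145 kb, so width, which itself went with lower density, moved with the number of genes, and its part was not tested. Across the 314 regions, the densities of genes and of peaks had a Spearman coefficient of -0.32.

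The kept region with the most peaks, 11 on 471.1 kb, lay on chromosome 1 (7953741 to 8424840) over SLC45A1, RERE, PARK7 and ERRFI1. ERRFI1 encodes a feedback inhibitor of EGFR, and 0 of the 11 peaks lay within 10 kb of it. Next came the region at BCAS1 on chromosome 20, a gene known from amplification in breast cancer, with 8 peaks on 215.1 kb. Regions with 7 peaks lay at IFIT1B and the interferon-induced genes IFIT1, IFIT2, IFIT3 and IFIT5 (chromosome 10, 231.7 kb), at the metalloprotease gene ADAMTS12 (94.67 kb) and at PHLDA1 (115.1 kb), and another was 158 kb from PHLDA1. Regions with 6 peaks included those at EXT1, a heparan sulfate synthesis gene, at the protein kinase C gene PRKCH, at the semaphorin receptor gene NRP1 and at CUBN. By density among regions with 3 or more peaks, the first was the histone cluster at H2BC3 on chromosome 6 (26020206 to 26057601), with 5 peaks on 37.4 kb (134 per Mb) over 8 histone genes. BTBD9 followed with 6 on 58.17 kb (103 per Mb). Then came a region of 40.06 kb at 28.2 kb from JUN (74.9 per Mb), ADAMTS12 (73.9), the forkhead gene FOXQ1 (67), a gene-free region 856 kb from TFAP2A (67), PHLDA1 (60.8) and ADGRF1 (60.5). TEX48 (59.3) and TFAP2A itself (59.2) closed the list. The histone region was 38.4 kb wide in Luc+GFP cells.

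Wide superenhancers without an OCT-2 peak were also present. Of kept regions wider than the median, 16 held 0 peaks. Pooled, they contained 35 protein-coding genes per Mb, against 18.4 in the 141 that held a peak. Per region the numbers were closer, with a median of 3 genes (range 0 to 18) against 2 (range 0 to 20). The widest without a peak lay at ERGIC1 and the phosphatase gene DUSP1 (253.5 kb), at TAS1R3 with 18 genes (205.1 kb), and at CMIP (197.5 kb). Then came PLXNA3 and the filamin gene FLNA with 15 genes (181.7 kb), and ADAMTSL4 and the anti-apoptotic gene MCL1 (144.6 kb). Their widths in Luc+GFP cells were 287.7, 228.2, 197.4, 181.9 and 153.9 kb.

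Genes of transcription factors were present at kept superenhancers in 13 of 15 families, mostly with 1 or 2 members each. A gene counted where its body, extended by 10 kb, met a kept region. That held for 3.89% of 19974 protein-coding genes, and for 26 of 401 genes (6.48%, exact interval 4.28 to 9.36%) of 15 families of transcription factors and cofactors. At Luc+OCT-2-only regions the families had 13 genes (3.24%, beside 1.93% of protein-coding genes). The lists were written with earlier results of these data known, so their counts are descriptions without a test, and the difference between the 2 classes of region was not tested. An OCT-2 peak lay within 10 kb of 117 of the 401 genes (29.2%), beside 15.6% of protein-coding genes, whatever their superenhancers. Below, peak numbers given with a gene are those of its whole region unless stated otherwise. A gene said to lie in a region met it and may reach beyond it.

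AP-1 and small MAF factors had 5 of 16 members at kept regions (31.2%, interval 11 to 58.7%). By nearest gene alone there were 3, namely FOSL2, MAFF and JUN, of which JUN is not among the 5. AP-1 factors are dimers of FOS and JUN proteins that act downstream of growth factor and stress signals. FOSL2 lay in a region of 85.8 kb (88.74 kb in Luc+GFP cells) with 2 OCT-2 peaks. FOSB lay in 147.2 kb (159.6 kb) with 3 peaks, 1 of them on its promoter. FOSL1 lay in 105.9 kb (106.3 kb) and MAFF in 69.42 kb (131.6 kb), both with 0 peaks. JUND lay in 320.9 kb (146.7 kb) together with 13 other genes, and was 1 of only 2 factor genes whose region was covered by less than 50% in Luc+GFP cells (45.7%). JUN itself met a Luc+OCT-2-only region, and the kept region nearest to it was 28.2 kb away.

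RUNX factors, which bind DNA with the partner CBFB, had 2 of 4. RUNX1 lay in 149.8 kb (149.2 kb in Luc+GFP cells) with 2 peaks. RUNX2 met regions of 60.56 kb (86.71 kb) with 2 peaks and of 173.1 kb (176.8 kb) with 4. ETS factors had 2 of 25: ETS1 in 79.07 kb (101.2 kb) with 3 peaks and 5 peaks within 10 kb of the gene, and the epithelial factor EHF in 101.2 kb (122.7 kb) with 1. KLF and SP factors also had 2 of 25, KLF2 in 106.7 kb and KLF6 in 114.6 kb, each with 2 peaks, of which 0 lay within 10 kb of the gene.

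Other families had 1 or 2 members, and several of these shares were no higher than the 3.89% of all protein-coding genes. The bHLH family had 1 of 45 (2.22%), forkhead 1 of 29 (3.45%) and POU and homeobox 2 of 58 (3.45%). NF-κB, IRF, STAT and NFAT factors had 1 of 26 (3.85%). SOX and HMG had 1 of 20 (5%), nuclear receptors 2 of 37 (5.41%) and SMAD and co-repressors 1 of 12 (8.33%). The TEAD and coactivator family had TEAD3 (1 of 9), in a region of 73.97 kb that was 201.1 kb in Luc+GFP cells and that also holds the nuclear receptor gene PPARD, while the coactivator genes YAP1 and WWTR1 were at Luc+OCT-2-only regions. SMAD3, a mediator of TGF-β signals, lay in 185.7 kb with 2 peaks, and the SMAD co-repressor genes SKI and TGIF1 were at Luc+OCT-2-only regions. IRF1, an interferon response factor, lay in 139.7 kb with 3 peaks, the circadian factor NPAS2 in 71.42 kb with 2 and FOXQ1 in 74.63 kb with 5. Within 10 kb of the gene, SMAD3, IRF1 and FOXQ1 had 0 peaks and NPAS2 had 2. HMGA1, which encodes an architectural chromatin protein, lay in 54.05 kb, covered to 49.5% in Luc+GFP cells, with 0. The nuclear receptor ESRRA and the homeobox factor PBX2 lay in gene-dense regions with 20 and 12 genes. A region of 58.89 kb (58.84 kb in Luc+GFP cells) with 0 peaks met part of the body of POU2F2, the gene of OCT-2. The gene nearest to that region was ZNF574.

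The other factors had 5 of 65. TFAP2A, a factor of basal and luminal mammary cells, lay in 50.68 kb with 3 peaks, and the zinc finger oncogene ZNF217 in 94.77 kb with 0. WT1 lay in 37.9 kb (75.78 kb in Luc+GFP cells) and GRHL3 in 56.45 kb, each with 1 peak, and NFIX was at 2 regions. The 25 other bZIP genes and the 5 SNAI and ZEB genes, classical inducers of the mesenchymal state, had 0, which for 5 genes allows a share of up to 52.2%. Of the 27 regions at factor genes 21 held a peak (77.8%, interval 57.7 to 91.4%), and of the other 287 kept regions 236 (82.2%).

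Some factor genes were the nearest gene of a region that they did not touch. MYC, the proto-oncogene, was nearest to 2 kept regions within 10 kb of the noncoding gene PVT1, at 51 and 364 kb from MYC, of 177.7 and 91.44 kb with 5 peaks each. MAX, which encodes its partner, was 27.9 kb from a region of 175 kb with 4 peaks. SOX9 was 211 kb from one of 87.1 kb with 3 peaks, and HMGA2 128 kb from one of 100.8 kb with 4. Their Luc+GFP regions were 199.4, 120.3, 174.4, 88.66 and 100.7 kb. Nearest means nearest on the chromosome and shows no regulation.

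**Figure D4:**
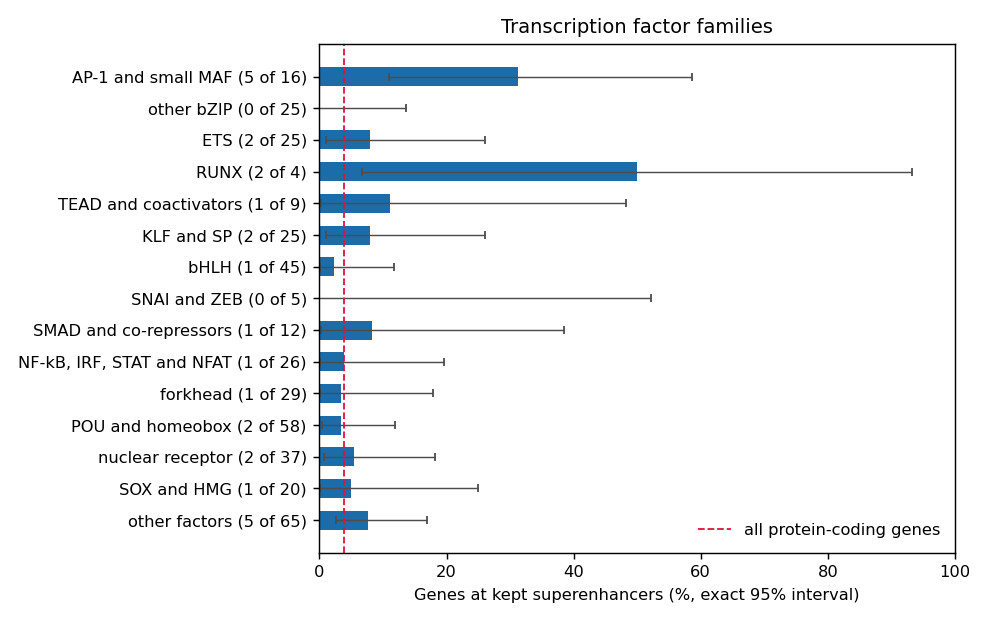
Share of the genes of 15 transcription factor families at kept superenhancers (x axis, %, with exact 95% intervals and the count beside each name). The dashed line is the 3.89% of all protein-coding genes, and the AP-1 and small MAF family reaches 31.2%.

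Beside the factors, some genes of adhesion, of feedback on growth factor signals and of the cytoskeleton were at kept regions. Of 54 genes of the extracellular matrix, its receptors and its remodelling, 15 (27.8%, exact interval 16.5 to 41.6%) were at kept regions. They included the integrin genes ITGA2, ITGA3, ITGB1 and ITGB4, the laminin genes LAMA5, LAMB3 and LAMC1, and COL13A1, CCN1, PLAU, MMP14, LOXL1, LOXL2 and CD44. CD44, the hyaluronan receptor gene, lay in 104.4 kb with 3 peaks, where the Luc+GFP region is 208.7 kb. LOXL1, a lysyl oxidase gene, lay in 74.51 kb with 3 peaks. ITGA2, CCN1 and PLAU, by contrast, lay in regions covered by Luc+GFP regions to 44.6, 53.7 and 48%. At Luc+OCT-2-only regions this list had 1 member, ITGA6.

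Of 42 genes of signal feedback and immediate early response, 12 (28.6%, interval 15.7 to 44.6%) were at kept regions. DUSP1, DUSP6 and DUSP7 encode phosphatases of MAP kinases, SPRY4 and ERRFI1 inhibitors of receptor signalling, and SOCS3 and NFKBIA inhibitors of cytokine and NF-κB signalling. IER2, IER3 and IER5 are immediate early genes, and PHLDA1 and the mRNA decay factor gene ZFP36L1 complete the group. PHLDA1 and ERRFI1 lay in the regions with 7 and 11 peaks, SOCS3 and IER5 in regions with 3 each, and DUSP1 in the region without a peak. Within 10 kb of the gene, PHLDA1 had 4 peaks, SOCS3 and IER5 had 1 each and ERRFI1 had 0. DUSP4, GADD45A and GADD45B were at Luc+OCT-2-only regions. DUSP4 was also the nearest gene of a kept region of 286.4 kb (289.5 kb in Luc+GFP cells) with 4 peaks, which its extended body did not meet.

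Of 55 genes of the actin cytoskeleton and focal adhesions, 12 (21.8%, interval 11.8 to 35%) were at kept regions. The α-actinin gene ACTN4 lay in 116.5 kb, the same width in both lists, with 5 peaks. The paxillin gene PXN lay in 124.1 kb with 5, CDC42EP3 in 182.6 kb with 5, and MYH9, a non-muscle myosin gene, in 180.2 kb with 1. Within 10 kb of the gene, ACTN4 had 5 peaks, PXN and MYH9 had 1 each and CDC42EP3 had 0. The others included FLNA, LASP1, CFL1, SEPTIN9, AFAP1, MICAL2 and FRMD4A. MICAL2 and FRMD4A had already been named in earlier results of these data. FRMD4A was also at a Luc+OCT-2-only region. Of 49 genes of growth factor receptors and ligands, 7 (14.3%, interval 5.94 to 27.2%) were at kept regions. EGFR lay in 233.1 kb (219.8 kb in Luc+GFP cells) with 2 peaks and AXL in only 13.23 kb (13.22 kb) with 1. EPHA2 lay in 139.4 kb with 1 on its promoter. The others were VEGFB, HBEGF, PDGFC and LIF, and PDGFC was also at a Luc+OCT-2-only region. Coactivators and chromatin regulators gave 5 of 43 (11.6%), among them BRD2, HEXIM1, ARID1A and NCOR1. NCOR1 lay outside its region and counted only through the extension of 10 kb. ARID1A, a subunit gene of the SWI/SNF remodeller, lay in 233.2 kb with 5 peaks, and HEXIM1, an inhibitor of P-TEFb, in 126.5 kb with 4. Housekeeping genes gave 3 of 24 (12.5%, interval 2.66 to 32.4%): ENO1, RPLP0 and TUBB.

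Markers of cell types were counted as a description, since these lists too were written with earlier results of these data known. Mesenchymal markers gave 7 of 20 (35%, interval 15.4 to 59.2%): VIM, AXL, CD44, S100A4, MMP14, ITGB1 and ETS1. Of these, AXL, CD44, MMP14, ITGB1 and ETS1 were already counted in the lists above. The rest of the mesenchymal list, with CDH2, FN1, ZEB1, ZEB2, SNAI1, SNAI2 and TWIST1 among them, was not at kept regions. VIM lay in 59.25 kb, against 33.48 kb in Luc+GFP cells. Luminal and epithelial markers gave 1 of 20, KRT7. Leukocyte markers gave 0 of 19 and fibroblast and endothelial markers 0 of 16.

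**Figure D5:**
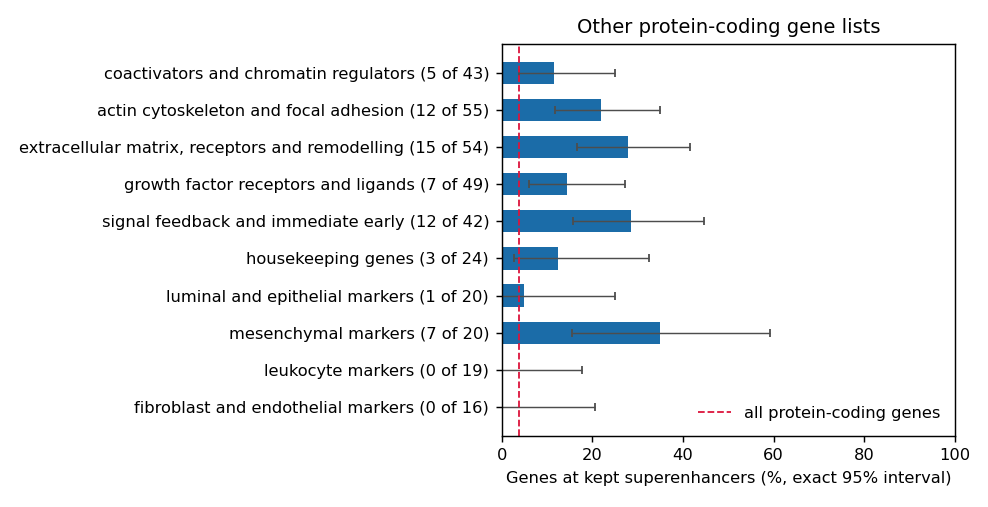
Share of the genes of 10 further lists at kept superenhancers (x axis, %, with exact 95% intervals and the count beside each name). The dashed line is the 3.89% of all protein-coding genes, the mesenchymal list reaches 35% and the lists of leukocyte and of fibroblast and endothelial markers 0.

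MicroRNA and long noncoding RNA genes were also among the kept loci. Of 42 such genes chosen for their links to cancer, 16 (38.1%, interval 23.6 to 54.4%) were at kept regions, beside 3.24% of all 20088 lncRNA and miRNA genes of RefSeq. Several of the 16 share a region, so fewer loci than genes stand behind the count. Of all 1558 microRNA hairpins, 72 (4.62%) lay inside 51 kept regions. The mature strands of well-studied members are shown, from RefSeq (GRCh38.p14), with the seed, bases 2 to 8, in capitals. They show which strands share a seed (miR-221 with miR-222, let-7a with let-7i, miR-30a with miR-30c) and which do not. Of these, let-7i and the 2 miR-30 strands were added after the values were seen.
miR-21-5p: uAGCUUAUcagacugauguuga
miR-221-3p: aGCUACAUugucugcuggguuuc
miR-222-3p: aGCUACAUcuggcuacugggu
miR-23a-3p: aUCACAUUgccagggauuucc
miR-27a-3p: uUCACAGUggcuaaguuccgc
miR-24-3p: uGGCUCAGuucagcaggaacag
miR-100-5p: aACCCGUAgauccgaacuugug
let-7a-5p: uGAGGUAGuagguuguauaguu
let-7i-5p: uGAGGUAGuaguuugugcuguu
miR-30a-5p: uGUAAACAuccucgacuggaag
miR-30c-5p: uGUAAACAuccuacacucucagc

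MIR221 and MIR222, whose strands share the seed GCUACAU, lay together in an X-linked region of 114.3 kb (45696030 to 45810331) that had the same width in Luc+GFP cells, held no protein-coding gene and had 0 OCT-2 peaks. MIR21, a widely studied oncogenic microRNA gene, lay at VMP1 on chromosome 17 in 153.8 kb (152.5 kb in Luc+GFP cells) with 5 peaks. MIR23A, MIR27A and MIR24-2 are made from 1 transcript and lay with MIR181C and MIR181D in 47.98 kb of chromosome 19 (47.85 kb) with 2 peaks. MIR100 and MIRLET7A2, inside the host gene MIR100HG, lay in 69.3 kb of chromosome 11 (69.25 kb) with 4 peaks. Let-7a and let-7i share the seed GAGGUAG but lie in different kept regions, and MIRLET7I lay at PPM1H in 212.8 kb, against 109.6 kb in Luc+GFP cells. MIR30A and MIR30C2, with the seed GUAAACA, lay in 45.57 kb of chromosome 6 with 0 peaks. MIR193A lay in 52.28 kb against 222.6 kb in Luc+GFP cells. LINC-PINT met a region of 80.48 kb (124.9 kb in Luc+GFP cells), and MIR29A and MIR29B1 lay outside that region and counted through the extension of 10 kb. MIR146A and MIR205 of the same list were at Luc+OCT-2-only regions.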

How the data were processed

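The authors deposited lists of genomic positions without values (superenhancers from H3K27ac ChIP-seq and peaks from OCT-2 ChIP-seq), each made from 2 replicates. Per the submitters' processing notes, the tools were HOMER, bedtools, Bowtie and Bowtie2, with hg38 as well as hg19 as builds, and their order is not stated. The thresholds of the superenhancer and peak calls are not given in the sources used here, nor is any read count. Of 10 lists, 3 were used, all in hg38. The MDA-MB-436 lists match hg19, so the planned comparison with them was not run.

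Region names in the deposited lists record how many calls the authors merged into each, which was 2 for 311 of the kept regions and 3 for the other 3. Regions were used as deposited, on chromosomes 1 to 22 and X. A region was kept with an overlap of 1 bp, and a peak was counted in a region with any shared base, except where its centre is named. Genes came from RefSeq (GRCh38.p14), and a gene was at a region where its body, extended by 10 kb, met it. Clusters joined regions up to 500 kb apart.

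Shares have exact Clopper-Pearson 95% intervals and densities exact Poisson intervals. The Fisher exact test, two-sided with Benjamini-Hochberg adjustment over 4 width quartiles, was tested on simulated data. Python 3.11.15, numpy 2.4.6, scipy 1.17.1 and matplotlib 3.10.9 were used.

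The genes named are those nearest to the 10 regions with the most peaks, to the 10 densest with 3 or more peaks and to the 5 widest without a peak, those of the 3 largest clusters, the members of the gene lists and the promoters with an octamer under a peak. Regions with extreme width ratios or overlaps, further clusters, other promoters under a peak, genes nearest to untouched regions, and let-7i, miR-30 and miR-181 were added after their values were seen. The members and lists were chosen with earlier results of these data known. All 758 listed genes were found in RefSeq. Alternatives were other overlaps, gene assignments, cluster gaps, width classes and peak placement, and the widest regions alone. A few genes that these rules name are not reported here.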

Additional observations from a re-analysis of the deposited data

How the results depend on the processing

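No paired analysis was possible because each list merges its 2 replicates, and leaving out a replicate was not run for the same reason. With only as many of the widest Luc+OCT-2 regions as the Luc+GFP list holds, 231 regions were kept and the share with an OCT-2 peak was 86.1% in place of 81.8%, since narrow regions were dropped. With fixed width classes (cuts at 50, 100 and 150 kb), the odds ratios of the third and the fourth class were 1.57 and 1.25 in place of 0.834 and 0.686, each with an adjusted Fisher exact p of 1. The number of kept regions was 307 when 50% of the Luc+OCT-2 region had to be covered and 278 when 50% of both had to be. Clusters numbered 36 with a gap of 250 kb and 53 with 1 Mb. Peak density was 17.4 per Mb over the Luc+GFP regions. Factor genes numbered 20 to 33 over the 5 alternatives. Counts of single lists moved by more than 1.5 times with the nearest gene alone (AP-1 and small MAF 3 in place of 5, TEAD 0 of 1, bHLH 3 in place of 1, NF-κB and IRF 0 of 1, POU and homeobox 0 of 2, nuclear receptors 0 of 2, SOX and HMG 2 in place of 1, coactivators 2 in place of 5, growth factors 3 in place of 7). With an extension of 50 kb, bHLH gave 4 in place of 1, other bZIP 1 in place of 0, and forkhead and luminal genes 2 in place of 1. With 50% coverage or the widest regions alone, SOX and HMG gave 0 in place of 1. The widest regions alone also gave 1 in place of 2 for POU and homeobox, 2 in place of 5 for the other factors and 9 in place of 16 for noncoding genes. Regions, genes and promoters are not replicates of the cells, and how stable the lists are between libraries was not tested.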
